A study of Mus musculus with 8 samples.

Results

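The transforming growth factor beta (TGF-beta) ligands Tgfb1, Tgfb2 and Tgfb3, the latency protein Ltbp1, the receptors Tgfbr1, Tgfbr2, Acvrl1 and Eng, and the inhibitory SMADs Smad6 and Smad7 were examined in microvessels of newborn mouse brain. These 10 genes were represented by every probe set of the array that the platform annotation gave to 1 of their symbols alone, 23 probe sets out of 45101. Each gene had at least 1 probe set bright enough to test, and 17 of the 23 probe sets passed. Microvessel fragments with their attached pericytes had been captured from dissociated brains at postnatal day 1 on magnetic beads carrying an antibody to PECAM, an endothelial surface protein, and each brain gave 1 single-colour array made from 6 ug of total RNA. The mutant group was 4 brains with a Pdgfrb knock-in allele, PDGFRb (D849V), a substitution by which this receptor, carried by pericytes, is active in the absence of PDGF. The control group was 4 brains of wild type genotype. Both groups shared a mixed 129S/J background. Zygosity and any Cre driver of the allele are not given in the labels. Values are log2 GCRMA expression values, on which a step of 1 is a doubling of signal, and each difference is mutant minus control.

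TGF-beta is secreted in an inactive complex with its own propeptide, which LTBP proteins tie to the extracellular matrix until integrins or proteases release the ligand. Active ligand binds the type II receptor Tgfbr2, which engages the type I receptor Tgfbr1 (ALK5), and in endothelial cells signalling can also pass through the type I receptor Acvrl1 (ALK1) with the co-receptor endoglin, encoded by Eng. Receptor-activated SMAD proteins carry the signal to the nucleus, and Smad6 and Smad7 are induced as feedback inhibitors. In brain vessels the pathway is known for its part in the recruitment and differentiation of mural cells and in vessel stability.

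Ltbp1 was the only member that passed the test in the mutant microvessels, where its signal was 2.01-fold that of the controls. The ligands, receptors and inhibitory SMADs had differences between -0.38 and 0.04 on the log2 scale, and none of these 9 genes passed. Thus 1 of the 10 members was called higher and none lower by limma, with p-values adjusted by Benjamini-Hochberg over 11446 genes, of which 4.58% were called in either direction, 2.66% higher and 1.92% lower. At an unadjusted p under 0.05 there were 4 members, Ltbp1, Smad6, Eng and Tgfb2, against 20.6% of all genes. Of the 10 members, 8 had a difference below 0, as had 69.1% of all tested genes, and the median difference was -0.20 for the members and -0.11 for all genes. After a second quantile normalization, and again with arrays set to a common median, 8 of 10 were below 0, against 61.7% and 53.1% of all tested genes.

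On the 8 arrays the plot of the members by array shows how the groups lie for each gene.

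**Figure D1:**
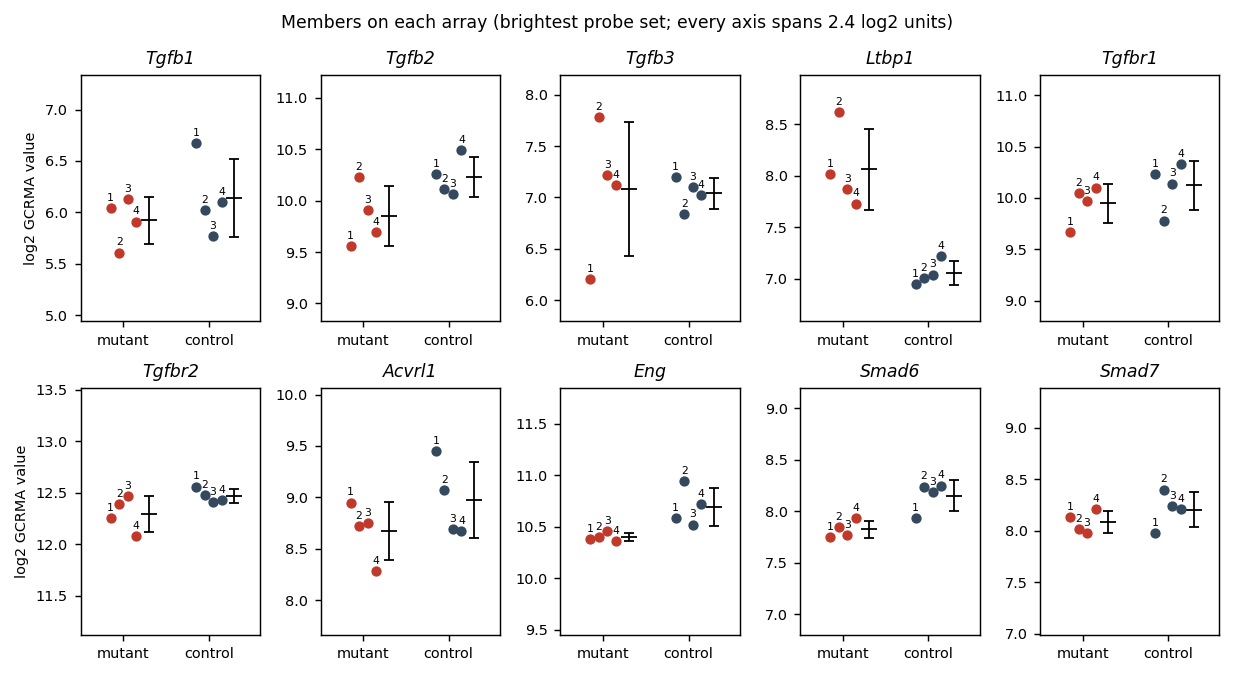
Log2 GCRMA values of the brightest probe set of each member on 4 mutant arrays (red, left) and 4 control arrays (blue, right), numbered by replicate, with group mean and SD in black. For Ltbp1 the mutant values, 7.73 to 8.62, lie above the control values, 6.95 to 7.22. For Eng, the mutant values of 10.36 to 10.46 lie just below the control values, and in the other panels the groups overlap.

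Across the whole table, 304 genes were called higher and 220 lower, and the split was 336 and 115 once arrays were set to a common median. The preparations carried the defining endothelial and pericyte transcripts at high signal: Cldn5, a tight junction protein, averaged 14.39 ± 0.12 in mutants and 14.57 ± 0.09 in controls, and Rgs5, a pericyte marker, 14.59 ± 0.19 in mutants and 14.66 ± 0.14 in controls (± SD over 4 arrays per group). None of 12 endothelial markers passed on its brightest probe set, although 11 of the 12 had differences below 0, against 69.1% of all tested genes. The glucose transporter Slc2a1, the brightest of them, read 14.47 ± 0.06 in mutants and 14.75 ± 0.12 in controls without overlap (adjusted p = 0.127). All mutant values lay below all control values in 10.4% of all tested genes. The tight junction gene Ocln, chosen after its values were seen, differed by -0.46 on its brightest probe set (adjusted p = 0.133) and fell by 0.77 on its other one (adjusted p = 0.00261). The endothelial markers' summed linear signal ran from 70094 to 85400 on mutant arrays and from 86869 to 95418 on control arrays. Of 10 pericyte and mural markers, Higd1b rose and Pdgfrb, the gene that carries the mutation, fell by 1.01 on its brighter probe set (adjusted p = 0.00132) but differed by 0.09 on its other one (adjusted p = 0.887). Of 12 microglia and macrophage markers tested, 10 rose, with summed linear signals of the 14 on the array from 12483 to 22098 in mutants and from 4548 to 6840 in controls. Of 3 platelet markers tested, Pf4, a chemokine of platelets and macrophages, rose by 0.96. No smooth muscle (5), fibroblast (6), neuron (8), astrocyte (8), oligodendrocyte lineage (5) or red cell (1) marker tested passed, and none of 5 lymphocyte markers was bright enough to test, with Cd3e at 2.18 on every array. In such bulk samples, more cells of a type and more RNA per cell cannot be told apart.

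Because Ltbp1 was the member that passed, the 300 bases around its annotated start sites are shown first, with Smad6, the member next in order of p, beside it. RefSeq promoter windows of build GRCm38.p6, which run from 250 bases before to 50 bases after a start, matched 7 of the 10 members with 9 windows; Tgfb3, Acvrl1 and Smad7 had none. Capitals mark letters found by searching both strands for the SMAD palindrome GTCTAGAC, the CAGA box CAGACA, the GC-rich SMAD box GGCGCC and the interferon response pattern of 2 GAAA blocks with any 2 bases between them. No 2 of these matches overlapped in the windows printed. Both Ltbp1 windows lie on the plus strand, the upstream one at chr17:75005279-75005578 and the downstream one at chr17:75178531-75178830, and the Smad6 window lies on the minus strand at chr9:64022010-64022309.
Ltbp1, upstream start: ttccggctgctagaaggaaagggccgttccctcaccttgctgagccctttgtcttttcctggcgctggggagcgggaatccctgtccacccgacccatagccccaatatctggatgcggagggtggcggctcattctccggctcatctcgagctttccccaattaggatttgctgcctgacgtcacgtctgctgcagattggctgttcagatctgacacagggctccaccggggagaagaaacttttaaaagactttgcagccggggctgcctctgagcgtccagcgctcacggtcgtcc
Ltbp1, downstream start: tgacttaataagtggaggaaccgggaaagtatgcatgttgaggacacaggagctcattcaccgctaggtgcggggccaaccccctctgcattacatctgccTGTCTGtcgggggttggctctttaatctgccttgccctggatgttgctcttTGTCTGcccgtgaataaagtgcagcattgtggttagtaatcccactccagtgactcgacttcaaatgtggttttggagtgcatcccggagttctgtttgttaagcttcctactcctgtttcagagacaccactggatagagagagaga
Smad6: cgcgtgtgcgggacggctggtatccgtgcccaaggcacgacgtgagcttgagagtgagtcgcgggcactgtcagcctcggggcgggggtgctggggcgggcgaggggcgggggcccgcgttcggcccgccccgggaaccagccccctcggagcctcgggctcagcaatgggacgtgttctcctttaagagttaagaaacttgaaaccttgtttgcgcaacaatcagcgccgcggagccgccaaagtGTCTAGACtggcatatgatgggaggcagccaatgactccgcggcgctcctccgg

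The downstream Ltbp1 window held 2 copies of the CAGA box read on the opposite strand (TGTCTG), a pattern found in 21% of the 32851 windows of this length. The upstream Ltbp1 window, with a GC content of 58.7% against 50% downstream, held none of the 4 patterns. The Smad6 window held the SMAD palindrome, starting at base 247 of the window and running across the annotated start. That pattern occurred in 0.213% of all windows. Among the other member windows, that of Tgfb2 and 1 of the 2 of Tgfbr1 had a CAGA box, and the other Tgfbr1 window had a GC-rich SMAD box, a pattern in 11.9% of all windows. These are matches of letters. The arrays do not tell which Ltbp1 start was used, and no binding was measured.

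Ltbp1 encodes latent TGF-beta binding protein 1, which holds the latent ligand in the matrix. Its brightest probe set (1448870_at) read 8.02, 8.62, 7.87 and 7.73 on mutant arrays 1 to 4, against 6.95, 7.01, 7.04 and 7.22 on control arrays 1 to 4. All 4 mutant values were above all 4 control values, and the mutants were spread more widely (SD 0.39 in mutants and 0.12 in controls). The difference was 1.01 (SE 0.185, 95% interval 0.58 to 1.43, limma adjusted p = 0.0197), a fold between 1.5 and 2.70. It was a moderate one among the called genes: 222 of the 304 genes called higher had a larger difference. Groups that did not overlap were found in 2 of the 10 members, Ltbp1 and Eng, and in 14.5% of all tested genes, 4.07% with the mutants higher. With all 22310 bright probe sets tested singly, Ltbp1 again was the only member called (adjusted p = 0.0309), 1 of 17 member probe sets against 2.63% of all probe sets, or 1.85% called higher. An unadjusted p under 0.05 was reached by 5 of the 17, against 16.3% of all probe sets, and 13 had a difference below 0, against 64.6%. The groups did not overlap on 3 member probe sets, 1 of Ltbp1 with the mutants higher and 1 each of Tgfb2 and Eng with the mutants lower, against 3.27% and 7.99% of all probe sets in those directions.

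The call of Ltbp1 lay near the threshold. It was lost without control replicate 1, 2 or 3 in turn, at differences of 0.97, 0.99 and 1.00 (limma adjusted p = 0.0602, 0.0609 and 0.0634), and with no filter on dim genes (adjusted p = 0.067 at the same difference). The other 2 Ltbp1 probe sets were too dim to test throughout: 1419786_at averaged 2.78 ± 0.53 in mutants and 2.33 ± 0.13 in controls, and 1447547_at averaged 2.20 in mutants and 2.22 in controls. The mean of all 3 had a difference of 0.48 (limma adjusted p = 0.0363).

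The rise of Ltbp1 stood beside the rise of microglia and macrophage markers and of Pf4 on the same arrays. The mean of the tested microglia and macrophage markers was 10.14, 9.81, 9.98 and 9.24 on mutant arrays 1 to 4, against 8.08, 7.31, 7.64 and 8.28 on control arrays 1 to 4. Ltbp1 was highest on mutant array 2, whereas the marker mean was highest on mutant array 1. Both were lowest among the mutants on array 4 and highest among the controls on array 4. The part of these cells in the Ltbp1 result was not tested. Nrros, which tethers latent TGF-beta on microglia and was chosen after its values were seen, read 8.69 ± 0.19 in mutants and 8.62 ± 0.33 in controls (± SD over 4 arrays per group). As descriptions over 8 arrays, the tested genes whose log2 values followed Ltbp1 most closely were the ATP-gated channel P2rx4 (Pearson r = 0.983), BC023105 (0.978) and the interferon-induced GTPase Mx2 (0.970), all of them called higher. For the other members the closest genes were Ubtd1 (Tgfb1), Usp16 (Tgfb2), Nup98 (Tgfb3), Zcchc4 (Tgfbr1), Mlh3 (Tgfbr2), Pias4 (Acvrl1), Ppt2 (Eng), Zbtb11 (Smad6) and Snai2 (Smad7), at r from 0.971 to 0.989, none of them called. All of these values share the same 8 arrays and their scaling. The group means were kept, so genes that follow Ltbp1 closely tend to differ between the groups as it does. Each r is the highest over all tested genes, and high values arise easily over 8 arrays.

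Among the ligands, Tgfb2 had the lower signals in the mutants on all its probe sets, without passing the test on any. Its brightest probe set (1450923_at) read 9.56, 10.23, 9.91 and 9.69 on mutant arrays 1 to 4, against 10.26, 10.11, 10.06 and 10.49 on control arrays 1 to 4. Only mutant array 2 reached into the control range. The difference was -0.38 (SE 0.164, limma adjusted p = 0.237), and the interval of -0.76 to -0.01 spans folds of 0.593 to 0.996.

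The dimmest of the 4 Tgfb2 probe sets had the largest difference. Probe set 1438303_at read 6.19, 6.88, 6.42 and 6.52 on mutant arrays, against 7.35, 6.86, 7.18 and 7.34 on control arrays, a difference of -0.68 (SE 0.172, limma adjusted p = 0.101 over all probe sets). The groups overlapped by a single pair of arrays, mutant 2 and control 2. It was called after a second quantile normalization, at -0.61 (adjusted p = 0.0484). On 1423250_a_at the groups did not overlap, with 8.88, 9.32, 9.10 and 9.07 on mutant arrays, against 9.59, 9.58, 9.33 and 9.70 on control arrays, and the difference was -0.46 (adjusted p = 0.124). The remaining probe set, 1450922_a_at, differed by -0.12 (adjusted p = 0.739). With the group means removed, the Tgfb2 probe sets varied alike over the 8 arrays, with pairwise Pearson r from 0.50 to 0.90. They read the same RNA extracts, so their shared direction is 1 observation and not 4.

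Tgfb1, the ligand most associated with immune and endothelial cells, was dim and varied between brains. It read 6.04, 5.61, 6.13 and 5.91 on mutant arrays, against 6.67, 6.02, 5.77 and 6.10 on control arrays. The ranges overlapped, and the difference was -0.22 (SE 0.200, limma adjusted p = 0.562). It was -0.04 without control replicate 1, -0.11 without mutant replicate 2 and -0.34 without control replicate 3. Its second probe set stayed between 2.78 and 2.81 on all arrays. Tgfb3 read 6.21, 7.78, 7.22 and 7.12 on mutant arrays, against 7.20, 6.84, 7.10 and 7.02 on control arrays, with a difference of 0.04 (SE 0.292, adjusted p = 0.952). The highest and the lowest of the 8 Tgfb3 values were both from mutants, arrays 2 and 1, and the SD was 0.65 in mutants against 0.15 in controls. The 95% interval of -0.63 to 0.71 leaves room for a change in either direction.

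The TGF-beta receptors Tgfbr2 and Tgfbr1 were bright on their brightest probe sets, and neither passed the test. Tgfbr2, the type II receptor, read 12.25, 12.39, 12.47 and 12.08 on mutant arrays, against 12.56, 12.48, 12.41 and 12.43 on control arrays. Mutant array 3 lay inside the control range and the other mutant arrays below it. The difference was -0.17 (SE 0.103, limma adjusted p = 0.37), an interval of 0.753- to 1.04-fold, and -0.10 without mutant replicate 4. Tgfbr1 read 9.67, 10.05, 9.97 and 10.10 on mutant arrays, against 10.23, 9.78, 10.14 and 10.33 on control arrays. The groups overlapped, and the difference was -0.17 (SE 0.147, adjusted p = 0.528), with an interval of 0.703- to 1.12-fold. With single arrays left out it ran from -0.29 without control replicate 2 to -0.08 without mutant replicate 1, and it was -0.10 without control replicate 4. A dimmer Tgfbr1 probe set, 1420894_at, stayed between 4.18 and 4.52 on all arrays and differed by 0.08 (adjusted p = 0.727). The other Tgfbr1 probe set and 2 of the 3 for Tgfbr2 were too dim to test.

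Of the 2 endothelial receptors, Eng gave results that depended on the probe set. Eng is expressed mainly by endothelial cells. Its brightest probe set (1432176_a_at) read 10.38, 10.40, 10.46 and 10.36 on mutant arrays, against 10.58, 10.94, 10.52 and 10.72 on control arrays. All mutant values were below all control values, as in 10.4% of all tested genes, yet the gap between mutant array 3 and control array 3 was narrow. The difference was -0.29 (SE 0.105, limma adjusted p = 0.173). The other Eng probe set, 1417271_a_at, read 10.71, 10.72, 10.86 and 9.57 on mutant arrays, against 11.14, 10.21, 9.75 and 9.97 on control arrays. There the difference was 0.20 with an SE of 0.373 (adjusted p = 0.821), and 0.49 without mutant replicate 4 (adjusted p = 0.443). The mean of both Eng probe sets differed by -0.05.

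Acvrl1 read 8.95, 8.72, 8.75 and 8.28 on mutant arrays, against 9.45, 9.07, 8.69 and 8.67 on control arrays. The ranges overlapped, with mutant array 4 lowest, and the difference was -0.29 (SE 0.208, limma adjusted p = 0.451). It was -0.16 without mutant replicate 4 and -0.13 without control replicate 1. The second Acvrl1 probe set read 8.94, 8.55, 8.89 and 8.22 on mutant arrays, against 8.94, 9.02, 8.50 and 8.70 on control arrays, a difference of -0.14 (adjusted p = 0.74), and 0.001 without mutant replicate 4.

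Mutant array 4 was also the lowest of the 8 arrays for the endothelial markers. The mean of the 12 markers was 11.57 there, against 11.98 to 12.11 on the other mutant arrays and 11.93 to 12.34 on the control arrays, as the plot of endothelial receptors by array shows. On that array both Acvrl1 probe sets, both Eng probe sets and Tgfbr2 had their lowest value of the 8. Array control 1 had the highest marker mean, and the highest value for Tgfbr2, for 1 of the 2 Acvrl1 probe sets and for the Eng probe set 1417271_a_at. The part of the endothelial content in these differences was not tested.

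**Figure D2:**
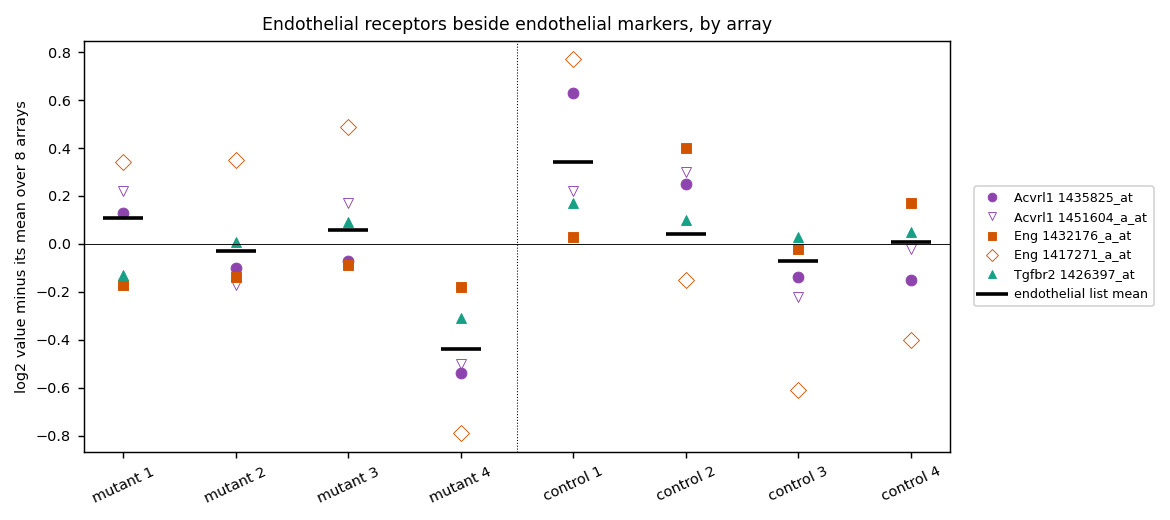
Log2 value of each tested Acvrl1, Eng and Tgfbr2 probe set minus its own mean over the 8 arrays, by array, with the mean of 12 endothelial markers as a black bar. Mutant arrays are on the left and control arrays on the right. Mutant 4 is lowest for all 5 probe sets and for the marker mean (-0.44), and control 1 has the highest marker mean (0.34).

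Smad6, an inhibitor that acts mainly on BMP and ALK1 signalling, came next to Ltbp1 in order of p. It read 7.75, 7.85, 7.77 and 7.93 on mutant arrays, against 7.93, 8.24, 8.19 and 8.25 on control arrays. Control array 1 met the upper end of the mutant range, and the other controls lay above it. The difference was -0.33 (SE 0.099, limma adjusted p = 0.115), with an interval of 0.682- to 0.934-fold before adjustment. Smad7, which blocks TGF-beta receptors as well, read 8.13, 8.02, 7.98 and 8.21 on mutant arrays, against 7.98, 8.40, 8.24 and 8.21 on control arrays. Its groups overlapped, and the difference was -0.12 (SE 0.109, adjusted p = 0.569), with -0.19 without control replicate 1 and -0.05 without control replicate 2. This probe set carries the suffix of sets that may cross-hybridise, and the other, 1423389_at, gave -0.12 as well (adjusted p = 0.613). Over the 8 arrays with group means removed, Smad6 and Smad7 were the pair of members with the highest correlation (r = 0.78), and Acvrl1 and Smad6 the pair with the lowest (r = -0.85). Both are extremes picked from all pairs of members, and such values arise easily over 8 arrays. No link between these genes was tested.

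The plot of all probe set differences sets these results side by side.

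**Figure D3:**
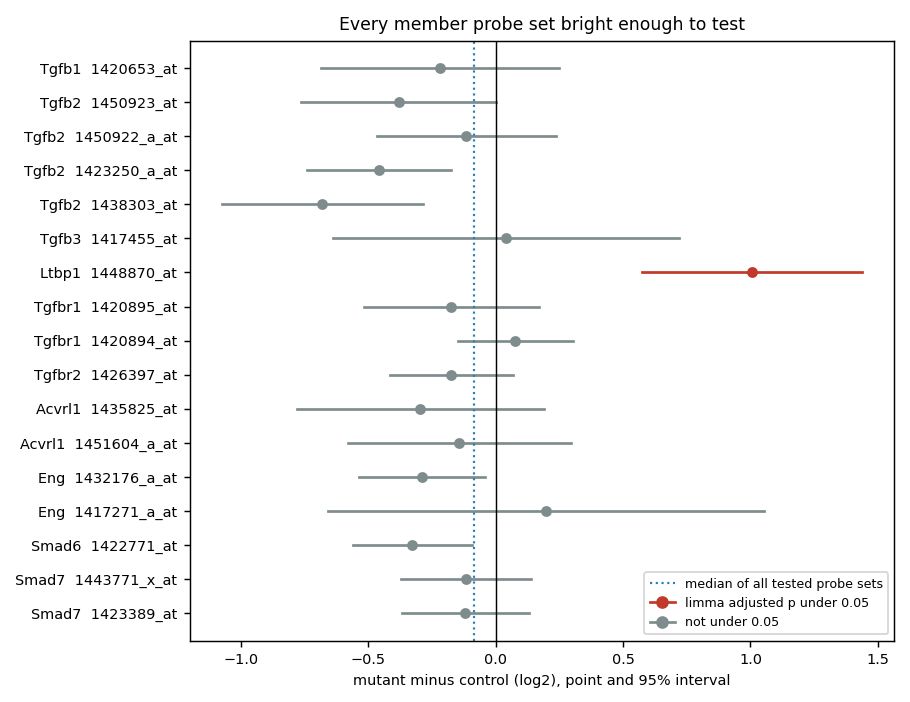
Mutant minus control differences (log2) of the 17 member probe sets bright enough to test, with 95% intervals from the fit over 22310 probe sets. Ltbp1 (red) is the only one with a limma adjusted p under 0.05. The 4 Tgfb2 probe sets lie below 0, whereas the 2 of Eng lie on either side of it, and the dotted line marks the median of all tested probe sets at -0.08.

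The rest of the pathway was read from 8 lists that hold 88 genes besides the members, 83 of them on the array and 67 bright enough to test. In all, 2 rose and none fell, 2.99% against the 4.58% of all genes called. Both are known as targets of the pathway. Tgfbi, a secreted matrix protein named for its induction by TGF-beta, read 9.90, 10.16, 10.18 and 10.07 on mutant arrays, against 9.24, 8.85, 9.0 and 9.37 on control arrays on its brightest probe set. It rose by 0.96 (SE 0.131, limma adjusted p = 0.0039), and its next brightest probe set differed by 0.91 (adjusted p = 0.0333). Tmem100, an endothelial membrane protein induced through ALK1, read 8.72, 9.18, 8.76 and 8.85 on mutant arrays, against 7.97, 8.0, 8.10 and 8.14 on control arrays, and rose by 0.83 (SE 0.117, adjusted p = 0.00485). Its other probe set was too dim to test, averaging 2.88 in mutants and 2.70 in controls. The mean of both Tmem100 probe sets differed by 0.50 (limma adjusted p = 0.0326). On the brightest probe set of both genes all mutant values were above all control values, as in 4.07% of all tested genes. In either direction the groups did not overlap for 8 of the 67 pathway genes, against 14.5% of all tested genes. Tgfbi is also made by macrophages, and the part of the macrophage markers' rise in its difference was not tested.

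The window at the Tgfbi start is shown because this gene moved furthest among the other pathway genes. It lies on the plus strand at chr13:56609336-56609635 of GRCm38.p6, and the capitals mark the patterns searched for above.
Tgfbi: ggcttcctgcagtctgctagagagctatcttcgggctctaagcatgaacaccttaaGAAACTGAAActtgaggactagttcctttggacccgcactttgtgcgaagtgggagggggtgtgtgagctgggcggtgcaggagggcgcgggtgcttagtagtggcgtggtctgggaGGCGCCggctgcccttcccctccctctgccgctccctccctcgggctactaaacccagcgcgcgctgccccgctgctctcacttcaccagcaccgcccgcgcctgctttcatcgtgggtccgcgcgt
It held 1 match to the interferon response pattern, starting at base 57 of the window, and 1 GC-rich SMAD box, starting at base 174. The interferon response pattern was present in 3.44% of all windows and in no member window.

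The other genes of the 2 target lists did not move with Tgfbi and Tmem100 past the test. Of 11 TGF-beta and SMAD3 target genes tested, Tgfbi was the only one called, against 4.58% of all tested genes. In that list 8 had differences below 0, near the 69.1% of all tested genes, and the median was -0.24 against -0.11. Of 9 BMP9 and SMAD1/5 target genes, Tmem100 was the only one called. There 7 had differences above 0 and 2 below, and the median was 0.12. The 2 medians kept these signs under both other scalings. With centred arrays 7 of the 11 and 2 of the 9 were below 0, against 53.1% of all tested genes. Neither list was tested as a set.

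No receptor or signalling SMAD outside the member list was called. All 8 of the other receptors tested had differences below 0, against 69.1% of all tested genes, and 7 of 8 did, against 53.1%, once arrays were set to a common median. Their median was -0.36, or -0.27 with centred arrays, and 5 of the 8 had an unadjusted p under 0.05. The BMP type II receptor Bmpr2, the brightest of them, read 11.15 ± 0.54 in mutants and 11.75 ± 0.20 in controls, and the decoy receptor Bambi 10.17 ± 0.21 in mutants and 10.53 ± 0.20 in controls (± SD over 4 arrays per group, limma adjusted p = 0.229 and 0.193). Of 5 signalling SMADs tested, 4 had differences below 0, against 69.1% of all tested genes, and 3 an unadjusted p under 0.05, with a median of -0.25. With centred arrays 4 of the 5 were again below 0, against 53.1% of all tested genes, and the median was -0.16. The shared partner Smad4 read 11.81 ± 0.10 in mutants and 12.06 ± 0.04 in controls, and Smad1, which carries BMP signals, 11.56 ± 0.13 in mutants and 11.68 ± 0.05 in controls (adjusted p = 0.13 and 0.478). At an unadjusted p under 0.05, 15.3% of all tested genes were lower in mutants. These differences stood beside those of the endothelial markers. The markers' summed linear signals given above, on values as deposited, did not overlap between the groups. Their log2 means did overlap, at 11.57 to 12.11 on mutant arrays and 11.93 to 12.34 on control arrays. The part of the endothelial content in the receptor and SMAD differences was not tested.

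The remaining lists held no called gene. Of 8 BMP and activin ligands tested, 5 had differences above 0 and 3 below, against 69.1% of all tested genes below 0. Their median was 0.10. Bmp4 read 8.95 ± 0.52 in mutants and 9.08 ± 0.41 in controls, and Bmp2 8.93 ± 0.18 in mutants and 8.47 ± 0.11 in controls (± SD over 4 arrays per group, limma adjusted p = 0.838 and 0.0602). Of 10 latency and activation genes, 7 had differences below 0, near the 69.1% of all tested genes, and the median was -0.09. The integrin chains Itgb1 and Itgav, parts of receptors that can release TGF-beta, had differences of 0.14 and -0.03. Among 5 secreted antagonists the proteoglycan Dcn differed by -0.03 and the BMP binding protein Twsg1 by 0.26, with a median of -0.03. Among 11 intracellular inhibitors, Fkbp1a, which binds type I receptors, differed by -0.05 and the SMAD corepressor Skil by -0.18, with a median of -0.06. In these last 3 lists the median moved above 0 with centred arrays, to 0.0002, 0.06 and 0.03, so they showed no direction apart from the scaling.

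**Figure D4:**
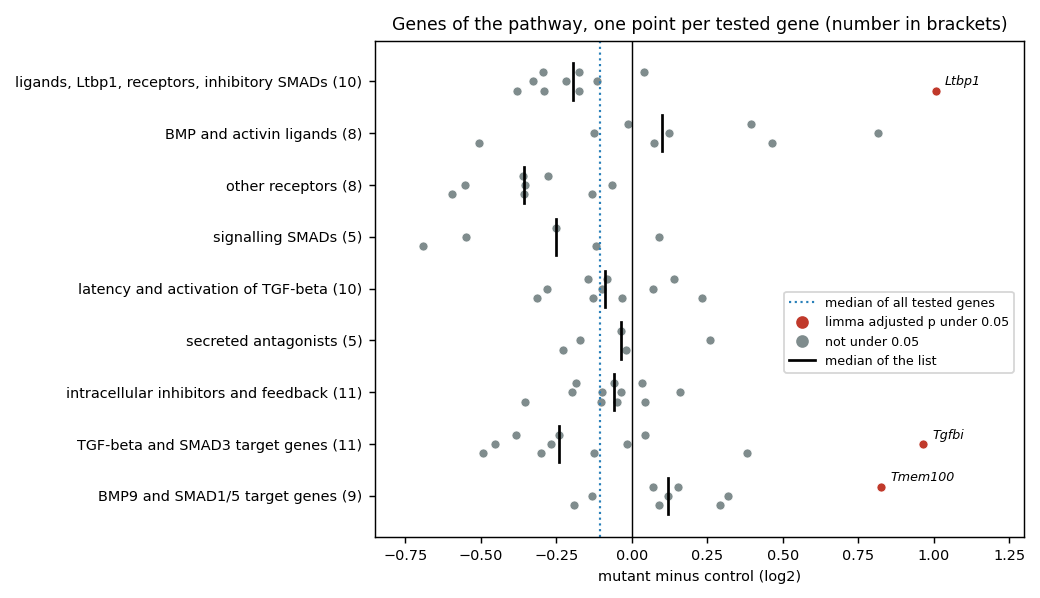
Mutant minus control difference (log2) of each tested gene, by list, with the members in the top row. Red points passed limma's test, black bars are list medians and the dotted line is the median of all tested genes at -0.11. Ltbp1, Tgfbi and Tmem100 stand to the right. The ligand Nodal, named after its values were seen, lies close to Tmem100 at 0.82 without passing (limma adjusted p = 0.083). The row of other receptors lies entirely to the left of 0.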

How the data were processed

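The deposited table holds log2 expression values per probe set from 8 one-colour arrays, deposited by the authors. The submitters' processing notes name GCRMA, without a version or options. GCRMA corrects background by probe sequence, quantile normalizes and summarises probes, so dim probe sets collect near a floor. The log2 scale was read from the values, 2.18 to 16.49. Number of arrays, not depth, limits the precision. Of 45101 probe sets, 34958 had 1 symbol, 932 several and 9211 were unnamed here. Each of 18194 genes was its probe set with the highest mean, and genes above log2 4 on at least 4 arrays, 11446, were tested with lmFit and eBayes of limma 3.58.1 (R 4.3.3), two-sided, without covariates, adjusted by Benjamini-Hochberg at 0.05. The fit on genes was tested on simulated data, and the same model was run on 22310 probe sets. Groups came from the titles. No litter, preparation day or scan date was at hand, so batches were not tested. Y-linked genes gave signal on 3 of the 4 mutant arrays and 2 of the 4 control arrays. Mutant array 2, the highest for Ltbp1, had none. With the Y-linked covariate Ltbp1 differed by 1.09 (limma adjusted p = 0.0101). The members, lists and rule for named genes were chosen with earlier results of these data known. That rule names all members, up to 4 called genes of each pathway list or else its 2 brightest, the 2 brightest and up to 2 called markers of each cell type list, and the gene most correlated with each member (3 for Ltbp1). Marker lists are given mostly as counts, with a few of those genes named. Alternatives were 2 other filters, 2 scalings, the replicate number as a block, a covariate from Y-linked genes, a threshold of 0.01, weighted arrays, a trended robust eBayes, 2 other choices of probe set, and each array left out in turn.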

Additional observations from a re-analysis of the deposited data

Results flagged for a closer look

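Among 34 groups of 4 arrays, the members' tested probe sets in each genotype, Dixon's test at 95% singled out 2, and chance alone singles out about 1 group in 20. On the Eng probe set 1417271_a_at, mutant array 4 read 9.57, against 10.71 to 10.86 on the other mutant arrays. On the dim Tgfbr1 probe set 1420894_at, control array 1 read 4.26 while the other control arrays shared 1 value, 4.31.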

How the results depend on the processing

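Over 18 alternatives the difference of Ltbp1 stayed between 0.48 and 1.12, and 13 of them kept its call. The replicate number as a block ended it (1.01, limma adjusted p = 0.0874), as did 4 settings given in the report. Same-numbered arrays had deviations correlated at -0.08, -0.48, -0.20 and 0.30. The labels do not say whether the numbers pair brains, and these few correlations cannot decide it. The block left 0 member genes, 0 member probe sets and 2 pathway genes called, against 259 of all genes called. Member genes called were 0 with no filter and 0 at a threshold of 0.01, and 3 with array weights, a setting that called 3158 of all genes. Of all genes, 524 were called in the fit reported, 246 at a threshold of 0.01, and 303 to 608 with 1 array left out. Member probe sets called were 0 with no filter, 0 at a threshold of 0.01, 2 after a second quantile normalization and 4 with array weights. Leaving out single arrays gave 0 to 1 member genes, 0 to 1 member probe sets and 2 pathway genes; for the probe sets the call was lost without mutant replicate 1 or 3 or any 1 of the 4 control replicates. With array weights 22 pathway genes were called (8 higher, 14 lower), Smad6 differed by -0.41 (adjusted p = 0.00451), Tgfb2 by -0.40 (adjusted p = 0.0425) and Tgfb1 by 0.0024, turned in sign. Tgfb3 turned in sign without mutant replicate 2 (-0.19), mutant replicate 3 (-0.004) or control replicate 2 (-0.03), within a range of -0.19 to 0.33 over single arrays left out. For these changes the cause was not tested.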

Other observations

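The Eng probe set that read lowest on mutant array 4 shared its pattern over the arrays with Pecam1, the gene whose protein the beads capture, chosen here after its values were seen. Pecam1 read 11.09, 10.96, 10.99 and 9.09 on mutant arrays 1 to 4, against 11.27, 9.56, 9.29 and 9.53 on control arrays 1 to 4. Both were thus high on mutant arrays 1 to 3 and control array 1 and low on the other arrays. This split followed genotype only in part, with mutant array 4 and control array 1 apart from their groups. The brighter Eng probe set did not show it, and neither did Cdh5, another endothelial gene, at 11.33, 11.48, 11.49 and 11.01 on mutant arrays, against 12.02, 11.54, 11.37 and 11.63 on control arrays. The cause was not tested.

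Outside the members, and chosen after their values were seen, 2 signalling SMADs had these values on their brightest probe sets: Smad3, which carries TGF-beta signals, read 9.11 ± 0.36 in mutants and 9.80 ± 0.31 in controls, and Smad5, which carries BMP signals, read 8.92 ± 0.34 in mutants and 9.46 ± 0.13 in controls (± SD over 4 arrays per group). Neither passed (limma adjusted p = 0.115 and 0.117).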
